A study of Mus musculus with 3 samples.

Results

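The 31 genes described here code for the subunits of the ionotropic glutamate receptors and for the proteins that sit beside them in the membrane. They were taken as a named list from a count table of 31055 genes. The list holds 4 AMPA receptor genes (Gria1 to Gria4), 5 kainate receptor genes (Grik1 to Grik5), 7 NMDA receptor genes (Grin1, Grin2a to Grin2d, Grin3a and Grin3b) and the delta receptor gene Grid1. The other members are 6 transmembrane AMPA receptor regulatory protein (TARP) genes (Cacng2, Cacng3, Cacng4, Cacng5, Cacng7 and Cacng8), Shisa6, Shisa7 and Shisa9, the cornichon genes Cnih2 and Cnih3, Gsg1l, and the kainate receptor auxiliary genes Neto1 and Neto2. All 31 were found in the table by symbol.

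The counts came from single nuclei of the olfactory bulb of 3 adult C57Bl/6 mice, with 1 library per mouse. Each mouse was injected with retroAAV-CAG-H2B-GFP, a virus that enters axon ends and travels back to the cell body, at several sites of both the piriform cortex and the anterior olfactory nucleus, so that bulb neurons with axons there made a green nuclear histone from the broadly active CAG promoter. Green nuclei were enriched by sorting, and the sorted nuclei still held inhibitory neurons and glia. No uninjected mouse is among the samples, and all groups compared below are classes of nuclei within the same 3 mice.

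The 31703 nuclei retained in the deposited annotation held 5845, 21105 and 4753 nuclei from mice 1, 2 and 3, with 58526996, 213891496 and 62929479 unique molecular identifiers (UMIs, 1 per captured transcript molecule). Between 8 and 39 retained cell barcodes were shared by a pair of libraries. The deposited annotation gives 22 clusters of all nuclei and 10 subclusters of the excitatory ones, and names none of them. From the marker lists of the study, which were chosen on these same nuclei, 7 subclusters carried the genes of a mitral or tufted cell type: M1-like (686 nuclei), M2-like (1149), M3-like (326), T1-like (2128), and the external tufted ET1-like (703), ET2-like (471) and ET4-like (883), written below as M1, M2, M3, T1, ET1, ET2 and ET4. M1 rested on 14 nuclei in mouse 1. A further 10 clusters carried inhibitory neuron markers and are called by number, and single clusters carried the markers of astrocytes, ensheathing glia, oligodendrocytes, oligodendrocyte precursor cells (OPCs) and microglia.

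Levels are UMIs summed over the nuclei of 1 class in 1 mouse and divided by all UMIs of that sum, as CPM (counts scaled to a common library total), and the values of single mice always stand in the order of mice 1, 2 and 3. Transcript length and capture differ between genes, so a level is compared between classes of nuclei and never between genes. The difference of a class from the mean of the other classes (a mean on the log2 scale) was tested with edgeR's quasi-likelihood test over 3 mice, with p-values adjusted by Benjamini and Hochberg's method over every gene in the fit, and was called at an adjusted p under 0.05 with an absolute log2 fold change above 1. The clusters were formed by the study from these same counts, so a p-value here measures a difference against the spread between mice and is no test that a cluster exists.

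In all 7 projection neuron types the summed level of 6 inhibitory markers (Gad1, Gad2, Slc32a1, Dlx1, Dlx6 and Meis2) was highest in mouse 2, and it ranged from 58.8 to 839 CPM against 4582 to 5105 CPM in the inhibitory neurons pooled by mouse and 1522 to 6097 CPM in the libraries of single inhibitory clusters. The members differed in how often they were highest in mouse 2. Of the 12 members called higher in inhibitory than in projection neurons, Gria3 and Neto1 were highest in mouse 2 in 7 of 7 types, Grik2, Grin2a and Cacng3 in 6, Gsg1l in 5, Gria1 in 4, Grin2b, Grin3a, Shisa7 and Cnih3 in 3, and Grik3 in 1. Of the 8 called higher in projection neurons, Gria4 and Shisa9 were highest in mouse 2 in 6 types, Shisa6 in 5, Grik1 in 3, Grid1 in 2, and Grik4, Grin2c and Cacng7 in 0. Nuclei with transcripts of both transmitter classes made up 9.46%, 13.4% and 10.8% of all retained nuclei of the 3 mice. The share was higher in the projection neuron types, with 15.6% in M3, 25.2% in M2, 25.5% in T1, 27.2% in ET1, 36.1% in ET2, 38.5% in M1 and 38.6% in ET4, against 3.71% to 11.1% in the inhibitory clusters. The cutoff, at least 2 UMIs of each class, was not scaled to depth. Median UMIs per nucleus were 5915 in M3 and 10419 to 20781 in the other types, against 4498 to 16912.5 in the inhibitory clusters. Cluster 17 had both the highest inhibitory share and the highest inhibitory depth. The part of depth in these shares was not tested. No doublet caller was run. The part of free RNA and mixed droplets in single levels was not tested, and values without the candidate doublets are given where leaving these out ends a member's call in a projection neuron type.

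Ionotropic glutamate receptors are tetrameric channels that open when glutamate binds. AMPA receptors carry most of the fast excitatory current, NMDA receptors need glutamate and a glycine-site ligand together with depolarisation and pass calcium, and kainate receptors act on both sides of the synapse. Auxiliary subunits bind the finished channel and change its delivery to the surface, its closing and its desensitisation. In the olfactory bulb the mitral and tufted cells receive glutamate from the olfactory nerve in the glomeruli and release it from their lateral dendrites onto granule cells and other inhibitory neurons, which answer with GABA at the same contact.

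Calcium entry through AMPA and kainate receptors depends on a single codon in the pore loop, which codes for glutamine in the genome and is recoded to arginine by RNA editing in Gria2 and in part of the Grik1 and Grik2 transcripts. The 27 bases around that codon are shown because the shares of Gria2 given below bear on how much of a type's AMPA receptor RNA can carry the edited form. They are read 5′ to 3′ from the coding strand of GENCODE M21 transcripts on GRCm38, and the capitals mark the codon.
Gria1: ggggccttcatgCAGcaaggatgtgac
Gria2: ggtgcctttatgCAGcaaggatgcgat
Gria3: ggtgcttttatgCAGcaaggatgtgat
Gria4: ggtgcctttatgCAAcaaggatgtgac
Grik1: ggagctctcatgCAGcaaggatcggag
Grik2: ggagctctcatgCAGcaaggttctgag
The genome held a glutamine codon in all 6 genes. In the 27 bases, Gria3 differed from Gria2 at 2 positions, Gria4 at 3, Gria1 at 4, Grik1 at 7 and Grik2 at 8. In Gria2 the codon lies in exon 11 of 16 at chr3:80706911-80706913 on the minus strand. The Gria4 codon is in exon 12 of 17 (chr9:4464137-4464139, minus strand) and that of Gria1 in exon 11 of 16 (chr11:57243094-57243096, plus strand). Counts per gene do not tell edited from unedited transcripts, and editing was not analysed here.

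Among the 7 projection neuron types, all 30 members that passed the filter on low counts differed (F test of any difference, adjusted p under 0.05), where 64.8% of all 14696 genes tested did so. Grin3b was the member that did not pass. Over the 30 members and 7 types, 83 of 210 pairs were called, or 39.5%, against 12.2% of all pairs of a gene and a type. With the 10 calls of mitral against tufted types given below these make 93 calls, of which 79 held under every alternative tried.

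**Figure D1:**
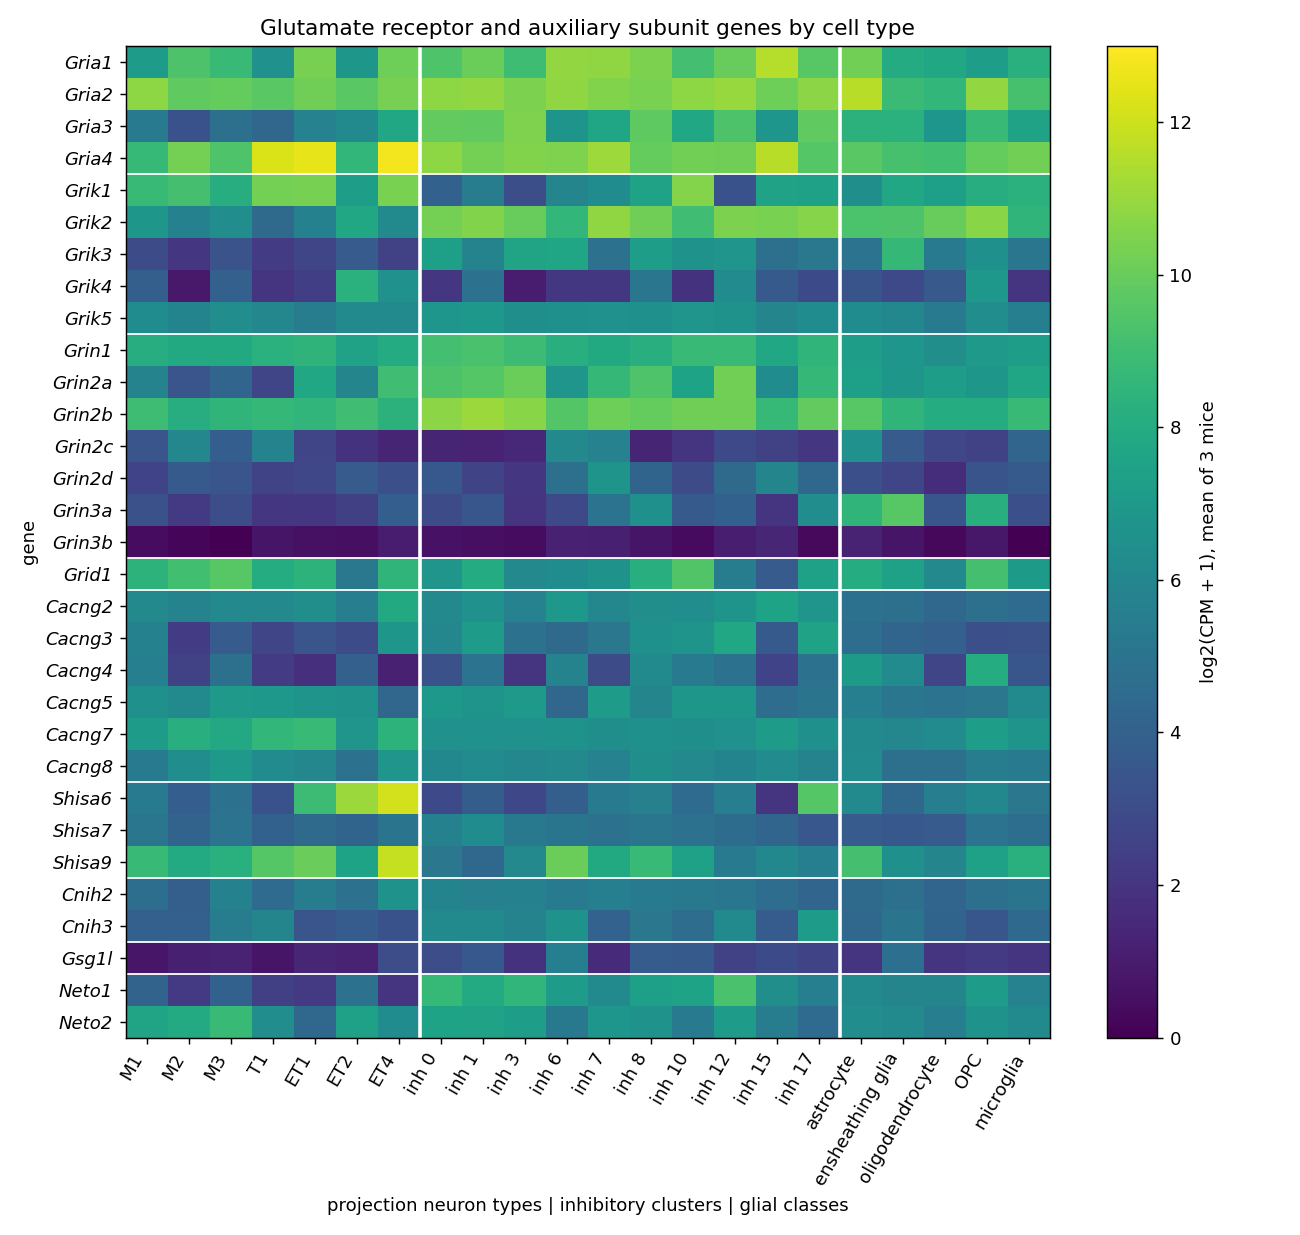
Mean level of the 31 members, as log2(CPM + 1) over 3 mice, in 7 projection neuron types, 10 inhibitory clusters and 5 glial classes. Rows are genes in the order of their families, columns are classes of nuclei, and lighter colours are higher levels. Shisa6 and Grik4 are lighter in a few columns only, while Grin1 and Grin2b are away from the dark end in every neuronal column.

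The AMPA receptor genes divided the projection neuron types by Gria1 and Gria4, while Gria2 varied less. Gria2, the subunit that keeps edited AMPA receptors closed to calcium, ranged over 719 to 2096 CPM in the 21 type libraries. Gria4, a subunit of fast AMPA receptors, was at 6858, 7769.9 and 6553 CPM in ET4, at 5345, 6015 and 5987 CPM in ET1 and at 4318, 5417 and 4781 CPM in T1. In ET2 the same gene stood at 420.1, 412 and 329 CPM and in M1 at 309, 570.3 and 366 CPM. The libraries of T1, ET1 and ET4 all lay above those of the 4 other types, and ET2 and M1 overlapped each other. Gria4 was called higher in ET1 (log2 fold change 2.24, SE 0.150, adjusted p = 1.21e-11) and in T1 (log2 fold change 1.99, SE 0.152, adjusted p = 8.36e-11), and also in ET4. It was called lower in ET2 (log2 fold change -2.46, SE 0.218, adjusted p = 1.08e-09), in M1 (log2 fold change -2.22, SE 0.216, adjusted p = 9.14e-09) and in M3 (log2 fold change -1.63, SE 0.205, adjusted p = 1.85e-06).

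Gria1, the subunit known for activity-dependent delivery to synapses, followed another order. It reached 1338, 1394 and 1158 CPM in ET1 and 1159, 1107 and 1074 CPM in ET4, and 728, 650.2 and 627 CPM in M2. In T1 it was at 95.5, 109 and 78.6 CPM and so among the low types, although it was high in Gria4. M1 and ET2 were low as well, with 67.7 to 195 CPM over their 6 libraries, and their ranges overlapped with each other and with T1. The difference was called in ET1 (log2 fold change 2.28, SE 0.163, adjusted p = 3.81e-11), in M2 (log2 fold change 1.25, SE 0.173, adjusted p = 2.56e-06) and, lower, in M1 (log2 fold change -1.60, SE 0.235, adjusted p = 6.78e-06). Gria1 was also called higher in ET4 and lower in T1 and ET2. Gria3 was highest in mouse 2 in each type, as were the inhibitory markers. Its level was 232, 238 and 203 CPM in ET4 and 6.08, 13.1 and 6.97 CPM in M2, where it was called lower (log2 fold change -2.51, SE 0.433, adjusted p = 5.60e-05). It was called higher in ET4, and its lower call in T1 was lost without mouse 1 (log2 fold change -1.22, adjusted p = 0.105), without the candidate doublets (log2 fold change -0.76, adjusted p = 0.0931) and with DESeq2 (log2 fold change -1.20, adjusted p = 0.0973).

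As a share of the UMIs of the 4 AMPA receptor genes, Gria2 took 74.3% ± 5.83 (SD, n = 3 mice) in M1, 59.4% ± 5.40 in ET2, 46.9% ± 5.56 in M3 and 32.0% ± 2.12 in M2. In T1, ET1 and ET4 it took 14.3% ± 0.602, 14.1% ± 1.38 and 13.3% ± 1.49. The last 3 did not differ beyond their spread, and each lay below M2. The inhibitory clusters summed per mouse stood close to M2 with 33.6% ± 0.826. Gria4 took 83.7% ± 0.309 of the family in T1 and 17.8% ± 2.46 in M1. These shares are compared between types of nuclei for the same gene and are not amounts of protein.

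**Figure D2:**
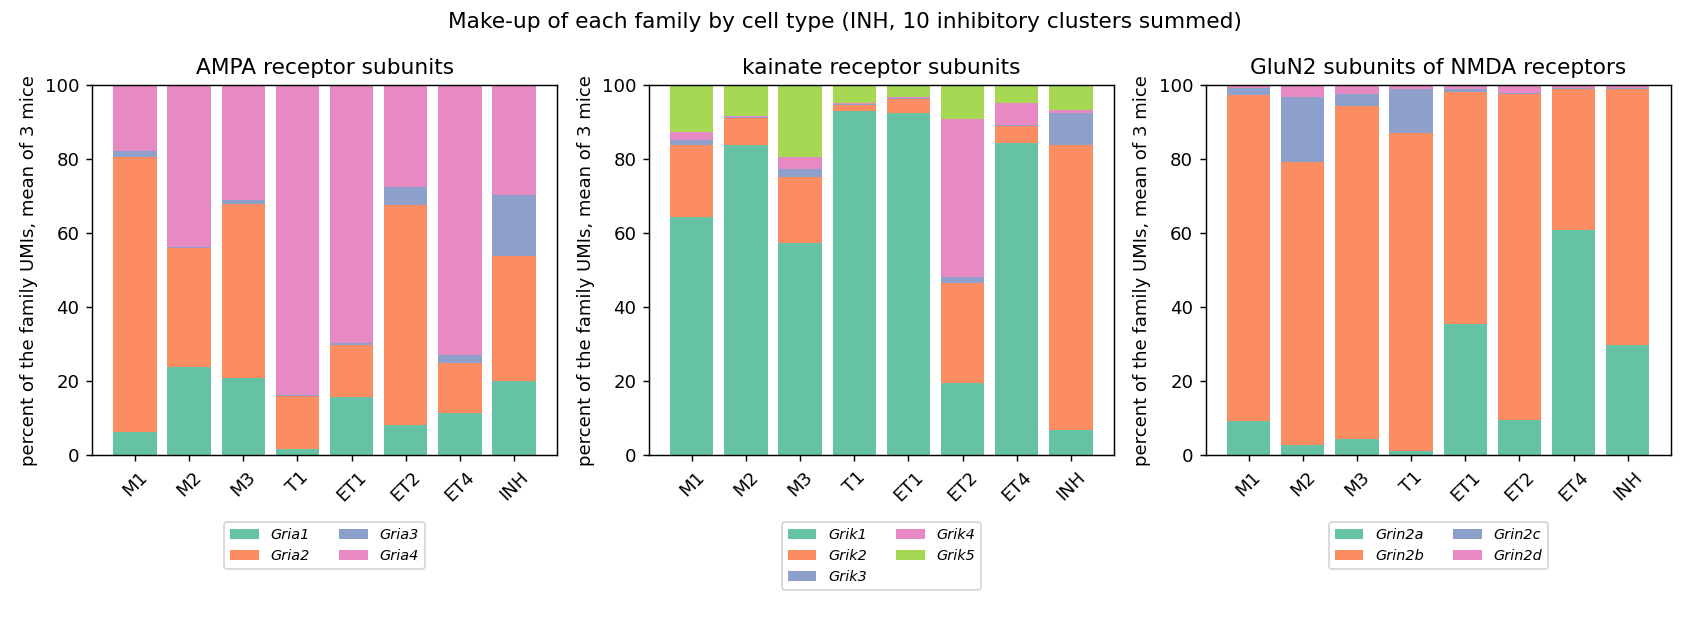
Share of the UMIs of 3 receptor families (AMPA, kainate and GluN2) taken by each subunit, in percent, as stacked bars for 7 projection neuron types and the inhibitory neurons (INH), each the mean of 3 mice. The Gria4 part of the AMPA bar is largest in T1, ET1 and ET4. The Grik1 part of the kainate bar is smallest in ET2 and INH, and the Grin2a part of the GluN2 bar is largest in ET4.

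Of the proteins that travel with AMPA receptors, Shisa6 was higher in the 3 external tufted types than in the other 4. Shisa6, which keeps AMPA receptors from desensitising at the postsynaptic density, was at 4185, 4548 and 4412 CPM in ET4 and 2114, 2112 and 2186 CPM in ET2. ET1 followed with 509.7, 702 and 252 CPM, and T1 held 4.79, 16.8 and 4.23 CPM. No library of the mitral types or of T1 reached the lowest library of the 3 external tufted types. The gene was called higher in ET4 (log2 fold change 5.67, SE 0.252, adjusted p = 1.16e-15) and ET2 (log2 fold change 4.51, SE 0.257, adjusted p = 2.35e-13), and lower in T1 (log2 fold change -4.47, SE 0.453, adjusted p = 1.29e-08), M2 (log2 fold change -3.72, SE 0.434, adjusted p = 1.88e-07) and M3 (log2 fold change -2.60, SE 0.483, adjusted p = 2.97e-04). It was also called higher in ET1 and lower in M1. Shisa9, also called CKAMP44 and known for slowing recovery from desensitisation, was at 3822, 3836 and 3297 CPM in ET4 and 963, 1290.1 and 909 CPM in ET1. ET2 held 186, 172 and 188 CPM, well below ET4 although both were high in Shisa6. Shisa9 was called higher in ET4 and ET1 and lower in ET2, M2 and M3. Within the 3 Shisa genes, Shisa6 took 91.5% ± 0.191 of UMIs in ET2, 54.4% ± 2.49 in ET4 and 1.09% ± 0.872 in T1. Shisa7, a family member best known from GABA-A receptors, stayed at 12 to 38.8 CPM.

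Of the TARP genes, 3 separated ET4 from the other types, and none separated M1. Cacng2, the gene of stargazin, was at 249, 223 and 235 CPM in ET4 against 42.8 to 91.1 CPM in the other 18 type libraries. Of the 7 types it was called in ET4 alone. Cacng3, of the same type I TARPs, was at 122, 131 and 102 CPM in ET4, also above each other library, and was called there (log2 fold change 3.30, SE 0.252, adjusted p = 5.27e-11) and in M1 (log2 fold change 2.44, SE 0.277, adjusted p = 1.33e-07), and lower in M2 and T1. Cacng4, the TARP gamma-4 that is known from young neurons and glia, was called higher in M1 and M3. In M1 it stood at 6.19, 72.1 and 64.5 CPM, where mouse 1 with its 14 nuclei lay far below the other mice and below the ET2 libraries, and in M3 at 20, 33.5 and 25.8 CPM. The call was higher in M1 (log2 fold change 3.53, SE 0.216, adjusted p = 1.93e-12) and M3 (log2 fold change 1.92, SE 0.347, adjusted p = 2.16e-04) and lower in ET4 (log2 fold change -2.58, SE 0.434, adjusted p = 2.74e-05). The mean sum of the 6 astrocyte markers was 215.5 CPM in M1 and 275 CPM in ET2, against 33.1 to 81.5 CPM in the other types. In cluster 13, which held most M1 nuclei, 5 OPC markers summed to 243 CPM, against 8.28 to 50.3 CPM in the other projection neuron clusters. Of these 5, Vcan alone reached at least 25% of its highest cluster mean there. The part of glial RNA in the Cacng4 level of M1 was not tested. The lower call in ET1 (log2 fold change -2.13, SE 0.424, adjusted p = 4.47e-04) was lost without mouse 2 (log2 fold change -1.43, adjusted p = 0.131), as was that in T1 (log2 fold change -0.75, adjusted p = 0.246), which was also lost without mouse 3 (log2 fold change -0.98, adjusted p = 0.0585) and without the candidate doublets (log2 fold change -0.78, adjusted p = 0.0532).

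Cacng5, a type II TARP, was at 14.8, 19.2 and 21 CPM in ET4 and at 69.9 to 172 CPM elsewhere, so that the ET4 libraries lay below all others (log2 fold change -2.57, SE 0.162, adjusted p = 1.18e-12). Cacng7 was lowest in ET2, with 101, 113 and 115 CPM, and stood at 462, 431 and 468 CPM in ET1. Cacng8, a type I TARP abundant in the hippocampus, was at 24.3, 31.7 and 27.5 CPM in ET2 and at 37.1 to 140.2 CPM in the other types. Cacng7 was called higher in ET1 and lower in ET2, and Cacng8 was called lower in ET2. The lower call of Cacng7 in M1 fell short of the fold threshold without mouse 2 (log2 fold change -0.97, adjusted p = 6.80e-04), without mouse 3 (log2 fold change -0.99, adjusted p = 4.03e-05) and without the candidate doublets (log2 fold change -0.997, adjusted p = 7.02e-07). ET4 was thus high in Cacng2 and Cacng3 and low in Cacng4 and Cacng5, with no overlap with the other types for Cacng2, Cacng3 and Cacng5.

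The cornichon genes and Gsg1l were each called higher in 1 or 2 types. Cnih2, a cornichon that slows AMPA receptor closing, was at 126, 82.3 and 88.7 CPM in ET4 and at 11.3 to 59.6 CPM elsewhere. It was called higher in ET4 and lower in M2. Cnih3 stood at 69.6, 48.5 and 63.1 CPM in T1, where it was called higher (log2 fold change 2.18, SE 0.150, adjusted p = 1.17e-11), and at 34.5, 47.7 and 53.2 CPM in M3. Cnih3 was called higher in M3 too, T1 and M3 overlapped, and in ET4, where it was called lower, Cnih3 was at 7.58, 11.8 and 6.99 CPM. Gsg1l, which slows recovery of AMPA receptors and acts against the TARPs, had its highest type level in ET4 with 8.77, 6.84 and 6.29 CPM and was called higher there. Its lower call in T1 was lost when any 1 of the mice was left out, and without the candidate doublets (log2 fold change -0.41, adjusted p = 0.634).

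Of the NMDA receptor genes, the obligatory subunit Grin1 and the GluN2B gene Grin2b varied within narrow ranges while Grin2a and Grin2c did not. Grin1 ranged over 159 to 376 CPM and Grin2b over 269.6 to 569 CPM in the 21 libraries. Grin2a, which gives NMDA receptors faster kinetics, was at 555, 509 and 486 CPM in ET4, at 223, 238 and 172 CPM in ET1 and at 3.50, 10.1 and 3.17 CPM in T1. ET4 lay above every other library, and ET1 above all types but ET4. The calls were higher in ET4 (log2 fold change 3.87, SE 0.221, adjusted p = 1.62e-13) and ET1 (log2 fold change 2.57, SE 0.238, adjusted p = 5.09e-09) and lower in T1 (log2 fold change -3.36, SE 0.360, adjusted p = 3.51e-08), and also lower in M2. In T1 the highest of the 3 values was that of mouse 2, in which the inhibitory markers were also highest. The lower call in M3 (log2 fold change -1.60, SE 0.469, adjusted p = 0.0150) was lost without mouse 1 (log2 fold change -1.43, adjusted p = 0.122) and without the candidate doublets (log2 fold change -1.10, adjusted p = 0.0636).

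Grin2c, best known from cerebellar granule cells and astrocytes, was high in M2 and T1, both of which were called lower in Grin2a. It was at 78.0, 58.1 and 54.7 CPM in M2 and 71.5, 48.2 and 46.3 CPM in T1, and no library of another type overlapped with these 6. In ET4 it was at 2.39, 1.54 and 0.699 CPM, and in M1 at 24.8, 2.87 and 1.79 CPM. Grin2c was called higher in M2 (log2 fold change 3.56, SE 0.194, adjusted p = 2.64e-13) and T1 (log2 fold change 3.28, SE 0.195, adjusted p = 7.07e-13) and lower in ET4 (log2 fold change -2.84, SE 0.439, adjusted p = 8.23e-06). Its lower call in ET2 was lost without mouse 2 (log2 fold change -1.72, adjusted p = 0.0942). The lower call in M1 (log2 fold change -1.80, SE 0.382, adjusted p = 6.93e-04) was lost with DESeq2 (log2 fold change -1.23, adjusted p = 0.131), and the high M1 value is again that of mouse 1. As a share of the GluN2 UMIs, Grin2a took 60.8% ± 2.83 in ET4, 35.6% ± 5.26 in ET1 and 1.23% ± 0.911 in T1, while Grin2c took 17.6% ± 3.19 in M2, 11.8% ± 2.17 in T1 and 0.181% ± 0.0950 in ET4. Grin2d, the slow GluN2D subunit, ranged over 0 to 15.9 CPM. Grin3a, whose subunit lowers calcium entry, reached 0, 16.3 and 8.57 CPM in M1 and 12.8, 12.1 and 16.8 CPM in ET4. It was called higher in both, but the call in M1 was lost without mouse 2 (log2 fold change 0.83, adjusted p = 0.245). Grin3b did not exceed 1.41 CPM in any type library.

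**Figure D3:**
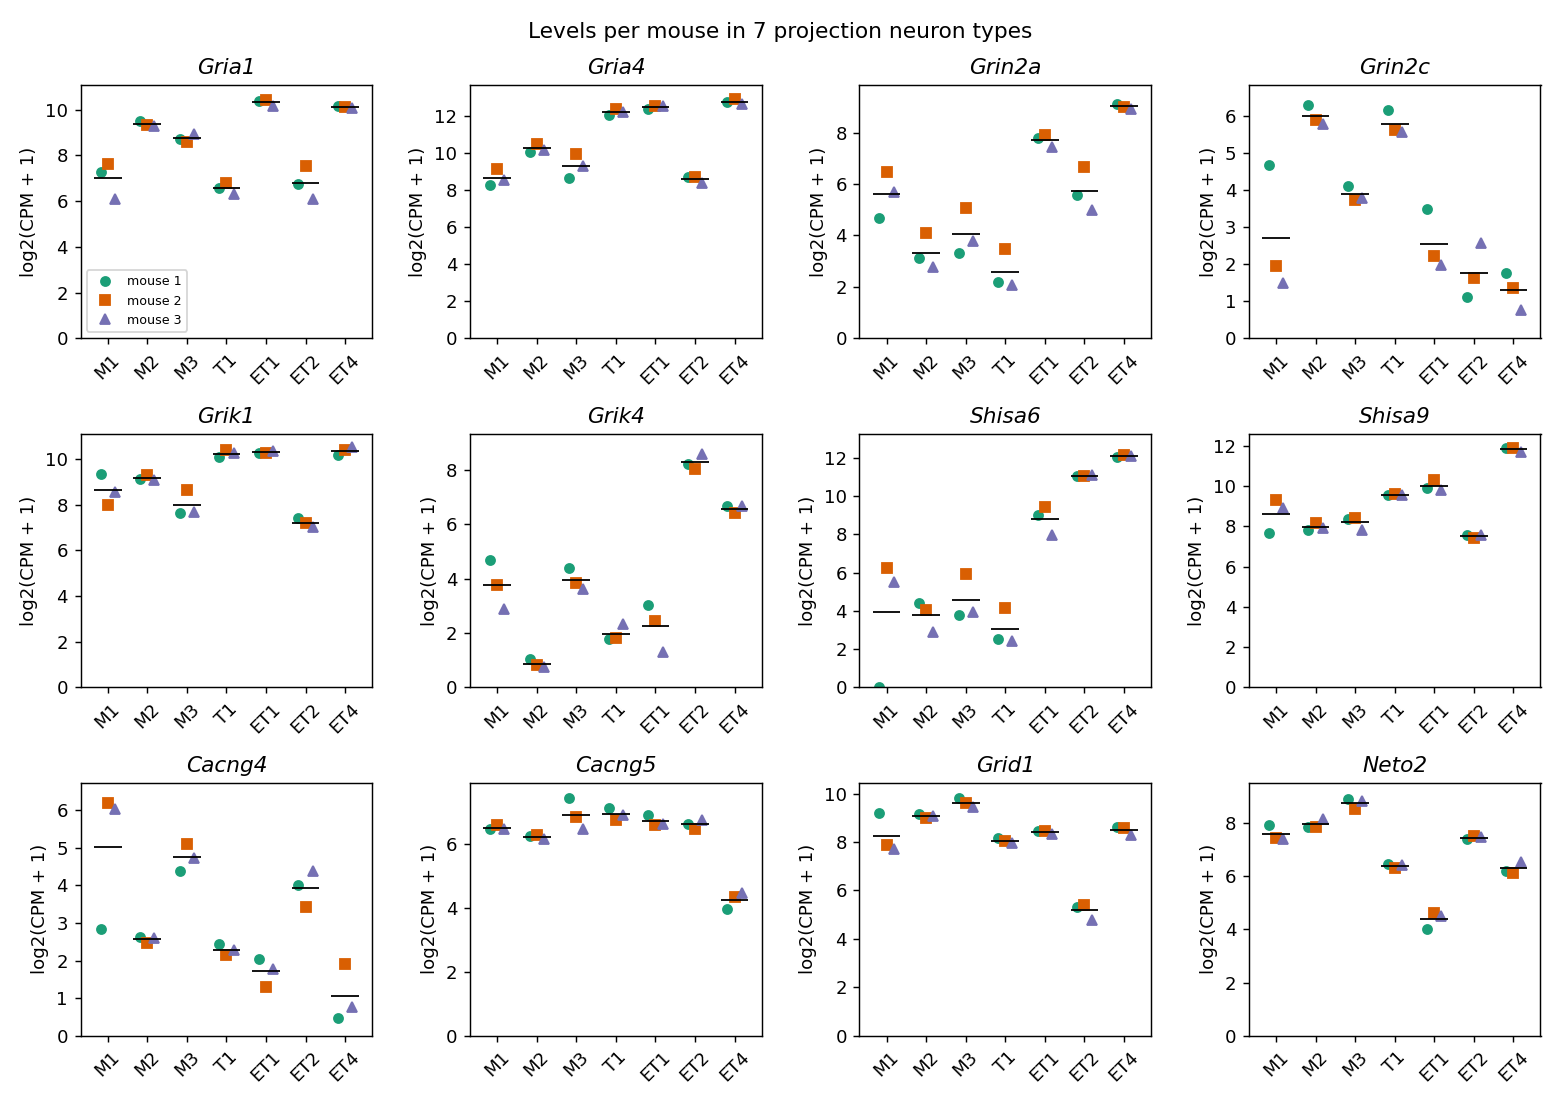
Level of 12 members in each mouse, as log2(CPM + 1), in the 7 projection neuron types; a point is 1 mouse and a short line the mean of 3. Gria4 is high in T1, ET1 and ET4, Shisa6 in the 3 external tufted types, Grik4 in ET2 and ET4, and Grin2c in M2 and T1, while the M1 point of mouse 1 stands apart for Cacng4 and Grin2c.

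Among the kainate receptor genes, Grik1 and Grik4 separated ET2 from the other types. Grik1, the GluK1 subunit, was at 1105, 1353 and 1226 CPM in T1, 1237, 1259.8 and 1334 CPM in ET1 and 1182, 1375 and 1471 CPM in ET4, and these 3 types overlapped. In ET2 it stood at 169, 145 and 129 CPM, below every library of the other types (log2 fold change -2.34, SE 0.202, adjusted p = 6.88e-10). Grik1 was also called lower in M3 and higher in T1, ET1 and ET4. Grik4, whose GluK4 subunit raises the glutamate affinity of the receptor and cannot form a channel alone, was at 301, 265 and 386 CPM in ET2, at 100.5, 84.5 and 101 CPM in ET4 and at 1.07, 0.735 and 0.670 CPM in M2. All libraries outside ET2 and ET4 lay below those of ET4. The call was higher in ET2 (log2 fold change 5.36, SE 0.143, adjusted p = 5.00e-20) and lower in M2 (log2 fold change -4.37, SE 0.305, adjusted p = 2.22e-11), T1 (log2 fold change -2.30, SE 0.236, adjusted p = 1.69e-08) and ET1 (log2 fold change -1.67, SE 0.287, adjusted p = 7.13e-05). ET4 was called higher as well, and the study lists Grik4 among its ET4-specific genes. Grik4 was not among the 6 markers by which ET4 was named here.

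The kainate share showed the same exchange. Grik1 took 93.0% ± 0.877 of kainate receptor UMIs in T1, 92.3% ± 1.91 in ET1, 84.4% ± 2.15 in ET4 and 19.5% ± 2.15 in ET2, where Grik4 took 42.5% ± 11.8. Grik2, the GluK2 subunit, was at 204, 310.2 and 116 CPM in ET2 and 17.6, 28.1 and 18.4 CPM in T1, with mouse 2 the highest in both. It was called higher in ET2 and lower in T1. Grik2 is abundant in inhibitory neurons, and the 6 inhibitory markers summed to 495, 839 and 170.0 CPM in ET2, the highest mean of the 7 types and in the same order of mice, against 92.9, 205 and 70.9 CPM in T1. Their part in the Grik2 levels was not tested. Grik3 stayed at 0 to 19.7 CPM and Grik5, the partner subunit GluK5, at 35.5 to 91.8 CPM over the 21 libraries.

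Neto1 and Neto2, which slow kainate receptor currents, differed from each other. Neto2 was at 476, 362 and 451 CPM in M3 and 229.6, 228 and 281 CPM in M2, against 15.3, 23.2 and 21.9 CPM in ET1, and the ET1 libraries lay below all others. It was called higher in M3 (log2 fold change 1.89, SE 0.101, adjusted p = 1.02e-12) and M2 (log2 fold change 1.33, SE 0.0941, adjusted p = 2.87e-11) and lower in ET1 (log2 fold change -2.93, SE 0.144, adjusted p = 3.67e-14). Neto1 was at 16.2, 44.9 and 21.2 CPM in ET2 and 0, 34.0 and 15.5 CPM in M1, with mouse 2 the highest in each type. Its call in ET2 (log2 fold change 2.02, SE 0.384, adjusted p = 1.76e-04) was lost without the candidate doublets (log2 fold change 1.5, adjusted p = 0.0514), and so was its call in M1 (log2 fold change 1.71, SE 0.375, adjusted p = 0.00100), where the difference also missed the threshold with DESeq2 (log2 fold change 1.55, adjusted p = 0.108) and was small without those nuclei (log2 fold change 0.17, adjusted p = 0.885). Its lower calls were also lost without the candidate doublets, in M2 (log2 fold change -1.09, adjusted p = 0.139) and in ET4 (log2 fold change -0.51, adjusted p = 0.574), as well as with DESeq2 and when mouse 1 was left out.

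The delta receptor gene Grid1 codes for GluD1, a receptor that binds cerebellins across the synapse rather than carrying a glutamate current. It was at 889.6, 775 and 701 CPM in M3, 562, 510.3 and 533 CPM in M2 and 39.3, 41.3 and 26.8 CPM in ET2. ET2 lay below all other libraries. Grid1 was called higher in M3 (log2 fold change 1.52, SE 0.124, adjusted p = 1.41e-09) and lower in ET2 (log2 fold change -3.51, SE 0.190, adjusted p = 8.69e-14), and also higher in M2.

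Counted by type, ET4 held the most called members, with 13 higher and 5 lower of 30, against 18% of all genes called, 8.72% higher and 9.32% lower, and the median log2 fold change of the members was 0.36 against 0.01 over all genes. ET1 had 7 higher and 3 lower members (8.61% of all genes called, 5.17% higher and 3.44% lower). In ET2 the counts were 4 and 8 (13.8% of all genes called, 7.64% higher and 6.18% lower), and in T1 4 and 9 (12.2% of all genes called, 6.68% higher and 5.5% lower). For the mitral types the counts were 4 and 5 in M1 (11.9% of all genes called, 7.81% higher and 4.04% lower), 4 and 8 in M2 (12.1% of all genes called, 6.83% higher and 5.29% lower) and 4 and 5 in M3 (8.57% of all genes called, 5.37% higher and 3.2% lower). With libraries scaled by their totals, the counts were 4 and 9 in M2, 5 and 5 in M3, 7 and 5 in ET1, 6 and 8 in ET2 and 4 and 10 in T1. The 3 lower members of ET1 became 6 without mouse 1, and also with the mouse as a block. Shisa6, lower in M1, M2 and M3, was the one member called in the same direction in all 3 mitral types, and no member was called in the same direction in all 4 tufted types.

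Mitral and tufted cells are the traditional classes of bulb projection neurons, and the 3 mitral types were also set against the 4 tufted types. Of 30 members, 4 were higher and 6 lower in the mitral types, with 9.34% of all genes called, 5.53% higher and 3.81% lower. Cacng4 (log2 fold change 2.43, SE 0.230, adjusted p = 4.53e-09), Neto2 (log2 fold change 1.93, SE 0.0787, adjusted p = 7.72e-16) and Grid1 (log2 fold change 1.39, SE 0.0983, adjusted p = 1.98e-11) led the higher members. Shisa6 (log2 fold change -3.94, SE 0.285, adjusted p = 2.95e-11), Grik4 (log2 fold change -2.33, SE 0.194, adjusted p = 4.44e-10) and Gria4 (log2 fold change -2.07, SE 0.135, adjusted p = 4.34e-12) led the lower ones, with Gria3, Grin2a and Shisa9. The groups overlapped for all 10 called members, and single types departed from their class: T1 stood with the mitral types in Shisa6, T1 and ET1 in Grik4, and ET2 in Gria4. The fourth higher member, Grin2c, was high in M2 and T1 alone and its call was lost without mouse 2 (log2 fold change 1.00, adjusted p = 0.102).

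Projection neurons and inhibitory neurons are the partners of the reciprocal synapse, and the sort gave both from each mouse. Of the 31 members, 20 were called between them, 8 higher and 12 lower in projection neurons, with 29.3% of 18088 genes called, 15.4% higher and 13.9% lower, and the groups did not overlap for any of the 20. The median log2 fold change of the members was -0.63 against 0.01 over all genes. Among the members higher in projection neurons, Shisa6 was at 588, 776 and 361 CPM in projection neurons and 29.7, 32.0 and 24.4 CPM in inhibitory neurons (log2 fold change 4.39, SE 0.289, adjusted p = 1.04e-05). The external tufted types carried this level. T1 and M2, the types with the most nuclei, held 4.23 to 19.9 CPM of Shisa6, below every inhibitory library pooled by mouse. M1 and M3 overlapped with these pooled libraries. Single inhibitory clusters differed in Shisa6, and its mean was 2.97 CPM in cluster 15. Grik1 was at 870.2, 924 and 841 CPM against 128, 76.4 and 113 CPM (log2 fold change 3.14, SE 0.177, adjusted p = 5.40e-06), and Shisa9 at 879.5, 1013 and 668 CPM against 207, 144 and 183 CPM (log2 fold change 2.34, SE 0.179, adjusted p = 2.15e-05). In ET2 and M1 Shisa9 overlapped with the inhibitory libraries pooled by mouse. The other 5 higher members were Gria4, Grik4, Grin2c, Grid1 and Cacng7. Single types lay below the inhibitory libraries pooled by mouse in 4 of these: M1, M3 and ET2 in Gria4, M2, T1 and ET1 in Grik4, ET2 and ET4 in Grin2c, and ET2 in Grid1.

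The members lower in projection neurons were led by the kainate receptor genes of the inhibitory cells. Neto1 stood at 263, 303 and 334 CPM in inhibitory neurons and at 3.52, 14.0 and 6.40 CPM in projection neurons (log2 fold change -5.12, SE 0.466, adjusted p = 5.28e-05). Grik3 was at 136, 112 and 144 CPM against 5.24, 5.97 and 4.33 CPM (log2 fold change -4.57, SE 0.153, adjusted p = 1.11e-06), and Grik2 at 1237, 1098 and 1237 CPM against 45.1, 88.0 and 49.2 CPM (log2 fold change -4.21, SE 0.269, adjusted p = 9.15e-06). For these 3 the higher levels in projection neurons were those of mouse 2. In projection neurons the 6 inhibitory markers together stood at 2.62%, 6.95% and 2.06% of their level in inhibitory neurons. Neto1 stood at 1.34%, 4.61% and 1.92%, Grik3 at 3.86%, 5.32% and 3.01%, and Grik2 at 3.65%, 8.02% and 3.98%. Gria3, also called lower, stood at 5.16%, 8.29% and 3.03%. Neto1 lay below the percentage of the inhibitory markers in each mouse, Grik2 and Gria3 lay above it in each mouse, and Grik3 lay above it in mice 1 and 3. Grin2b, another of the members called lower, stood at 21.8%, 26.7% and 24.0%.

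The remaining lower members were Gria1, Gria3, Grin2a, Grin2b, Grin3a, Cacng3, Cnih3, Gsg1l and Shisa7. Single types departed from this direction: Gria1 in ET1 and ET4 and Cacng3 in ET4 lay above every inhibitory library pooled by mouse. Single inhibitory clusters went higher still, with means of 2959 CPM for Gria1 in cluster 15 and 210 CPM for Cacng3 in cluster 12. Cacng3 in M1, Cnih3 in T1, Grin3a in M1 and ET4, and Gsg1l in ET4 overlapped with the pooled libraries. Of the 20 calls, 4 depended on single mice: those of Grik4 (log2 fold change 0.97, adjusted p = 0.0417) and Cnih3 (log2 fold change -0.93, adjusted p = 0.00149) without mouse 2, Grid1 without mouse 1 (log2 fold change 0.99, adjusted p = 0.00205) and Gria1 without mouse 3 (log2 fold change -0.84, adjusted p = 0.00196). As a share of kainate receptor UMIs, Grik2 took 77.1% ± 1.05 in inhibitory neurons and Grik1 took 6.78% ± 1.25. Neto1 took 67.4% ± 0.692 of the UMIs of Neto1 and Neto2 in inhibitory neurons and 5.39% ± 3.96 in projection neurons. Grin3b was tested in this comparison alone and was not called, with a log2 fold change of -0.30 and an adjusted p of 0.370.

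**Figure D4:**
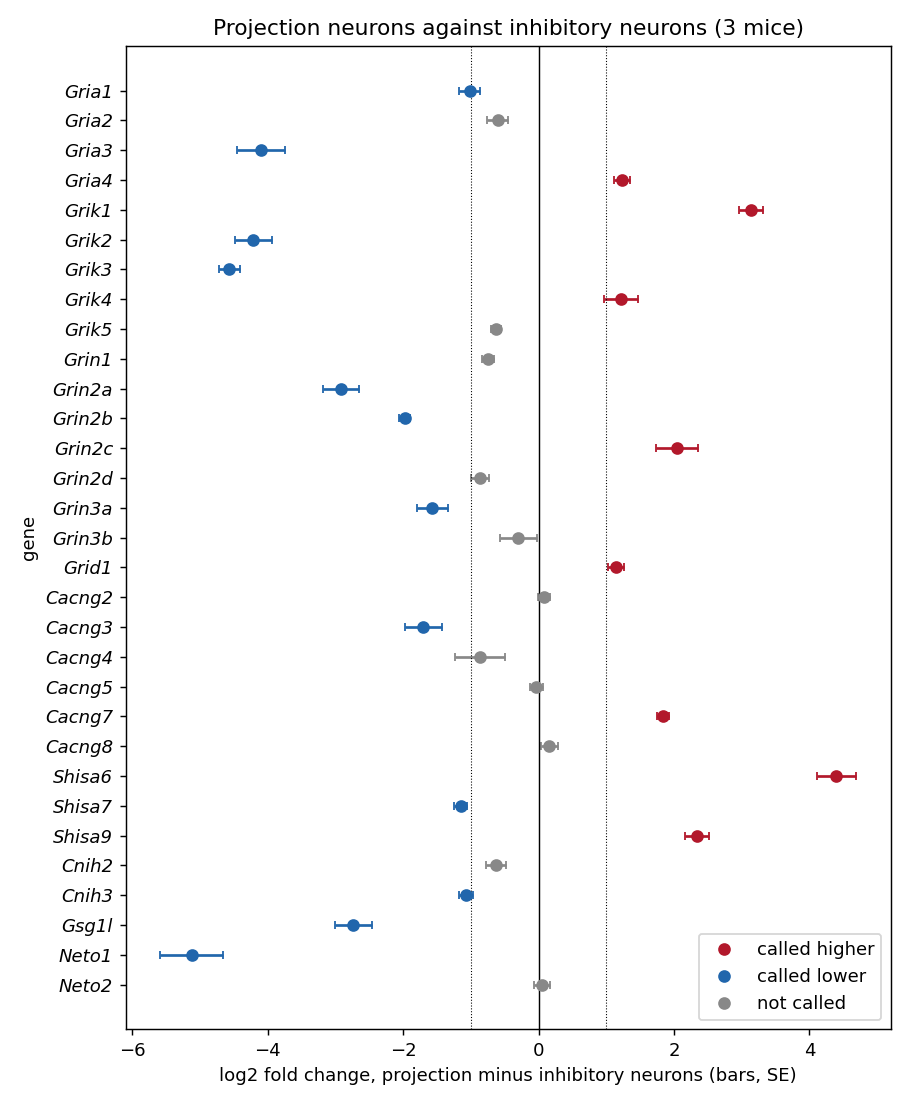
Log2 fold change of each of the 31 members in projection neurons against inhibitory neurons, with bars of 1 SE, over 3 mice per class. Shisa6, Grik1 and Shisa9 lie farthest to the projection neuron side, and Neto1, Grik3 and Grik2 farthest to the inhibitory side.

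The inhibitory neurons of the bulb are mostly granule cells and periglomerular cells, some of which are added throughout adult life. Among the 10 inhibitory clusters, 29 of 30 members differed (59.2% of all 14722 genes), and Cacng8 did not pass the threshold, with an adjusted p of 0.205. Over members and clusters, 118 of 300 pairs were called, against 10.3% of all pairs of a gene and a cluster, and 87 of them held under every alternative. Cluster 10, whose leading genes include Cartpt and Ndnf, was the cluster with the highest Grik1, at 1932, 962 and 1801 CPM against 6.86 to 206 CPM in the 9 others (log2 fold change 5.10, SE 0.127, adjusted p = 2.34e-24). Grid1 was at 755, 577 and 777 CPM there (log2 fold change 2.93, SE 0.121, adjusted p = 9.10e-19). In this cluster 3 members were higher and 8 lower (7.74% of all genes called, 4.97% higher and 2.78% lower), and each of the 8 lower calls was lost under some alternative.

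Cluster 17, led by Npsr1, Sorcs1 and Erbb4, was the inhibitory cluster with the highest Shisa6, at 656, 946 and 672 CPM against 0 to 93.0 CPM elsewhere (log2 fold change 5.64, SE 0.204, adjusted p = 2.50e-20). Grin3a was at 127, 77.0 and 43.4 CPM in it (log2 fold change 2.92, SE 0.217, adjusted p = 1.79e-12), and 6 members were higher and 5 lower (15.7% of all genes called, 8.76% higher and 6.91% lower). Cluster 8, with Calb1 and Foxp2 among its leading genes, shared the higher Grin3a, at 88.4, 86.6 and 98.7 CPM (log2 fold change 2.94, SE 0.174, adjusted p = 1.30e-14). Its counts were 8 higher and 1 lower (9.16% of all genes called, 7.65% higher and 1.51% lower).

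Clusters 6 and 7 were the inhibitory clusters with the highest Grin2c. In cluster 6, led by Trh and Prss12, Grin2c was at 82.3, 48.3 and 72.2 CPM (log2 fold change 4.31, SE 0.196, adjusted p = 1.10e-17) and Shisa9 at 1184, 939 and 1073 CPM (log2 fold change 3.72, SE 0.172, adjusted p = 1.54e-17). Gsg1l had its highest inhibitory level there, at 32.3, 45.1 and 67.1 CPM (log2 fold change 2.81, SE 0.259, adjusted p = 3.23e-10), and 6 members were higher and 8 lower (10.4% of all genes called, 6.6% higher and 3.84% lower). In cluster 7, which carried 5 of 5 markers of immature neurons and has Calb2 among its leading genes, Grin2c was at 64.6, 41.5 and 52.2 CPM (log2 fold change 3.80, SE 0.223, adjusted p = 7.09e-15). Grin2d was at 117, 87.9 and 108 CPM in cluster 7 (log2 fold change 2.84, SE 0.157, adjusted p = 1.62e-15), and 5 members were higher and 7 lower (10% of all genes called, 5.9% higher and 4.12% lower). The 6 astrocyte markers summed to 575 to 785 CPM in cluster 7, above the other inhibitory clusters. Of these 6, Slc1a3 alone reached at least 25% of its highest cluster mean there. The part of astrocyte RNA in the Grin2c level of cluster 7 was not tested.

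In cluster 15, which has Vip, Sst and Crh among its leading genes, Gria1 reached 3138, 2624 and 3116 CPM, the highest level of any inhibitory cluster (log2 fold change 1.51, SE 0.103, adjusted p = 3.74e-13). Grid1 was at 11.6, 22.2 and 3.24 CPM (log2 fold change -3.18, SE 0.251, adjusted p = 1.13e-11) and Grin2a at 53.1, 159 and 25.9 CPM (log2 fold change -2.45, SE 0.298, adjusted p = 1.08e-07). This cluster had 5 higher and 12 lower members (13.3% of all genes called, 6.34% higher and 6.97% lower). The lower Shisa6 call there was lost without mouse 1 (log2 fold change -2.21, adjusted p = 0.0679).

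Cluster 12 was the highest in Grik4, at 53.7, 68.6 and 105 CPM (log2 fold change 3.66, SE 0.246, adjusted p = 6.74e-13), and in Neto1, at 549, 644 and 639 CPM (log2 fold change 1.93, SE 0.171, adjusted p = 3.35e-10). It had 4 higher and 3 lower members (6.15% of all genes called, 3.89% higher and 2.26% lower). Cluster 3 was high in Gria3, at 1339, 1495 and 1400.1 CPM (log2 fold change 1.93, SE 0.273, adjusted p = 1.43e-06), and low in Grik1, at 7.33, 6.89 and 9.04 CPM (log2 fold change -3.35, SE 0.247, adjusted p = 4.45e-12), with 5 higher and 10 lower members (12% of all genes called, 4.28% higher and 7.7% lower). Cluster 1 was the cluster with the highest Shisa7, at 86.9, 71.0 and 75.9 CPM (log2 fold change 1.57, SE 0.129, adjusted p = 6.41e-11), and had 8 higher and 3 lower (9.45% of all genes called, 5.6% higher and 3.85% lower). Cluster 0, the largest, was led by Neto1, at 358, 390.1 and 498 CPM (log2 fold change 1.40, SE 0.172, adjusted p = 1.81e-07), and had 4 higher and 7 lower (9.54% of all genes called, 3.64% higher and 5.9% lower). Leaving out 1 mouse moved some of these counts by over 1.5 times. Without mouse 2, cluster 0 had 7 higher members, cluster 10 had 5 higher and cluster 17 had 8 lower. The lower members of cluster 7 were 4 without mouse 1 and 4 without mouse 3, those of cluster 10 were 5 without mouse 1 and 2 without mouse 3, and the single lower member of cluster 8, Grin2c, was lost without mouse 1 or mouse 3.

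**Figure D5:**
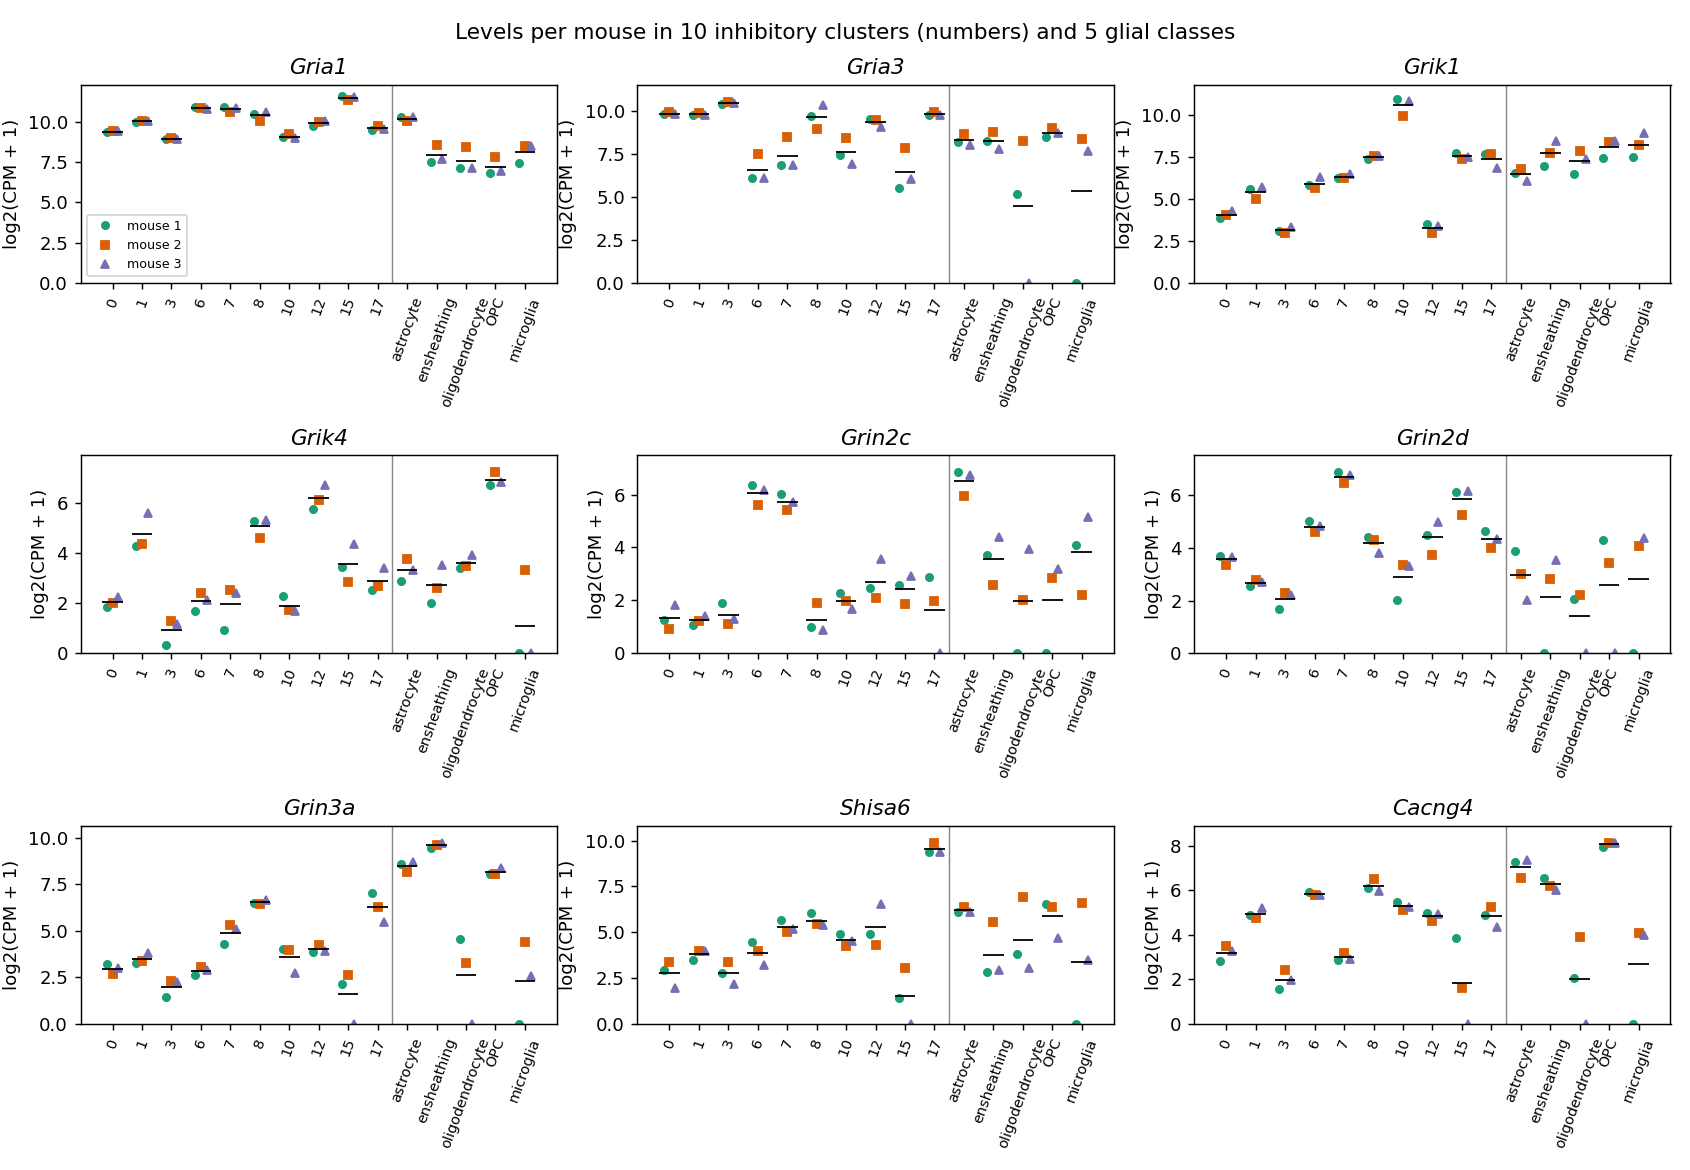
Level of 9 members in each mouse, as log2(CPM + 1), in the 10 inhibitory clusters and 5 glial classes; a point is 1 mouse and a short line the mean of 3. Grik1 stands out in cluster 10, Shisa6 in cluster 17, Grin2c in clusters 6 and 7 and in astrocytes, Grin3a in astrocytes, ensheathing glia and OPCs, and Cacng4 in OPCs and astrocytes.

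Glia are known to carry glutamate receptors of their own, and each glial class was set against the mean of projection and inhibitory neurons. Of 150 pairs of a member and a class, 84 were called, against 24% of all pairs of a gene and a class, and 44 of these held under every alternative. Without mouse 1 the count was 54. The glial libraries also held inhibitory markers, at 164 to 2249 CPM in sum, and the part of neuronal RNA in their levels was not tested. Grin3a stood out in glia, at 705, 785 and 849 CPM in ensheathing glia, the glia that wrap olfactory nerve bundles (log2 fold change 6.17, SE 0.272, adjusted p = 5.83e-16). It was at 385, 282 and 407 CPM in astrocytes (log2 fold change 5.03, SE 0.262, adjusted p = 2.24e-14) and 267, 263 and 334 CPM in OPCs (log2 fold change 4.59, SE 0.271, adjusted p = 7.11e-13). Both neuronal classes lay at 3.83 to 20.7 CPM, and oligodendrocytes and microglia at 0 to 22.4 CPM.

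Cacng4 was higher in OPCs, at 246, 281 and 277 CPM (log2 fold change 3.69, SE 0.285, adjusted p = 1.40e-10), and in astrocytes, at 156, 91.6 and 161 CPM (log2 fold change 2.79, SE 0.268, adjusted p = 3.17e-09). The OPC libraries lay above all others. Grik4 was also higher in OPCs, at 103, 149 and 114 CPM (log2 fold change 2.43, SE 0.253, adjusted p = 3.71e-08). Ensheathing glia had Grik3 at 462, 354 and 372 CPM (log2 fold change 3.75, SE 0.200, adjusted p = 2.43e-14) and a higher Gsg1l (log2 fold change 2.32, SE 0.302, adjusted p = 6.04e-07), at 19.5, 20.9 and 35.9 CPM. In astrocytes Grin2c was at 115, 60.7 and 107 CPM (log2 fold change 2.03, SE 0.303, adjusted p = 5.82e-06).

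By class, 6 members were higher and 11 lower in OPCs (21.2% of 12765 genes called, 11% higher and 10.3% lower), 5 and 9 in astrocytes (24.1% of all genes called, 13.8% higher and 10.3% lower), 5 and 17 in ensheathing glia (28.3% of all genes called, 16.2% higher and 12.1% lower), and 1 and 17 in oligodendrocytes (26.6% of all genes called, 12% higher and 14.6% lower), where Grik2 was the higher one at 1163, 904 and 972 CPM (log2 fold change 1.76, SE 0.253, adjusted p = 5.19e-06). That difference is from the mean of both neuronal classes: Grik2 was at 1237, 1098 and 1237 CPM in inhibitory neurons, above the oligodendrocytes in every mouse, and at 45.1, 88.0 and 49.2 CPM in projection neurons. Microglia had 0 higher and 13 lower (19.6% of all genes called, 10.1% higher and 9.51% lower), of which 1, Cacng2, held under every alternative. Without mouse 1 the lower members were 5 in OPCs, 11 in ensheathing glia, 10 in oligodendrocytes and 2 in microglia, and without mouse 3 they were 4 in astrocytes. Microglia had 7 lower members without mouse 2 and 7 without mouse 3. When libraries were scaled by their totals in place of TMM, the counts were 0 and 2 in microglia, 5 and 7 in astrocytes and 7 and 9 in OPCs. Shisa6 did not exceed 120.2 CPM in any glial library, against 361 to 776 CPM in projection neurons.

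Receptors are held in place by scaffold proteins, by proteins that assist assembly and by secreted proteins that bridge the synapse, and 33 such partner genes were read in the same comparisons. Between projection and inhibitory neurons, 5 partners were higher and 15 lower, and 11 of the 15 lower ones were among 17 scaffold genes, none of which was higher. Over all genes, 29.3% were called in this comparison, 15.4% higher and 13.9% lower. Cbln4, a secreted cerebellin, was at 55.7, 46.4 and 56.1 CPM in projection neurons and 2.66, 4.01 and 3.19 CPM in inhibitory neurons (log2 fold change 4.03, SE 0.181, adjusted p = 2.26e-06). Nptx1, a pentraxin that gathers AMPA receptors, was at 57.5, 44.6 and 55.8 CPM against 6.76, 5.99 and 5.61 CPM (log2 fold change 3.18, SE 0.130, adjusted p = 1.79e-06). Olfm3, a secreted olfactomedin found with AMPA receptor complexes, was lower in projection neurons (log2 fold change -3.78, SE 0.149, adjusted p = 1.68e-06).

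Within the projection neurons, Cbln1 was at 231, 78.6 and 132 CPM (log2 fold change 3.22, SE 0.218, adjusted p = 6.40e-11) and Cbln2 at 179.7, 106 and 62.8 CPM (log2 fold change 3.33, SE 0.271, adjusted p = 1.35e-09) in M3. Cbln1 was called lower in ET2, at 2.31, 4.90 and 1.41 CPM (log2 fold change -2.79, SE 0.386, adjusted p = 2.28e-06), and Cbln4 was lower there too, at 4.63, 5.42 and 0 CPM (log2 fold change -3.27, SE 0.340, adjusted p = 2.14e-08). Cbln4 was at 111, 93.4 and 114 CPM in T1, where it was called higher (log2 fold change 2.46, SE 0.154, adjusted p = 1.85e-12), as it was in ET1 and M3. Cbln1 was also called lower in ET4 and Cbln2 lower in ET2, ET4 and T1, and the calls of Cbln2 in ET4 (log2 fold change -1.23, adjusted p = 0.0858) and T1 (log2 fold change -1.19, adjusted p = 0.0632) were lost without mouse 2. M2 was called higher in Cbln1 and Cbln2. The call of Cbln4 in M3 was lost without mouse 1 (log2 fold change 0.62, adjusted p = 0.200) and that of Cbln2 in M2 without mouse 3 (log2 fold change 0.84, adjusted p = 0.0214). C1ql3, a C1q-like protein known to bind kainate receptors and adhesion receptors, was at 67.1, 63.0 and 60.7 CPM in ET2 (log2 fold change 6.53, SE 0.304, adjusted p = 3.95e-15), and Olfm3 at 159.7, 82.6 and 98.1 CPM (log2 fold change 4.88, SE 0.213, adjusted p = 1.12e-15). In all, 8 partners were higher and 7 lower of 31 in ET2, where 13.8% of all genes were called, 7.64% higher and 6.18% lower. Of the 8 higher partners, 6 (Olfm3, Grip1, Homer2, Grip2, Shank2 and Dlgap4) were called higher in inhibitory than in projection neurons. ET2 was also the type with the highest mean sums of the inhibitory markers, at 170.0 to 839 CPM, and of the 6 astrocyte markers, at 254 to 309 CPM against 28.7 to 269.7 CPM in the other types, and the part of either in these counts was not tested. The other types had 2 to 6 higher and 1 to 4 lower partners, where 8.57% to 18% of all genes were called. Set against the tufted types, the mitral types were higher in Cbln2 (log2 fold change 2.50, SE 0.221, adjusted p = 1.23e-09) and Cbln1 (log2 fold change 2.13, SE 0.179, adjusted p = 4.90e-10) and lower in the scaffold genes Homer3 (log2 fold change -1.43, SE 0.328, adjusted p = 0.00142) and Grip1 (log2 fold change -1.05, SE 0.0795, adjusted p = 6.86e-11). Grip1 did not separate the classes: ET2 held 752, 725 and 677 CPM, above all other types, while T1 held 56.4, 50.4 and 42.2 CPM, below every mitral library, and was called lower. Homer3 was at 0 to 3.36 CPM in all types but ET2 and ET4.

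Start-site sequences were at hand from RefSeq (GRCm38.p6) for 19 of the 31 members, as 250 bases before and 50 after each start. The promoters of Grik4 and Grin2c are shown because these members were high in few types and had a sequence at hand. Capitals mark GC boxes (GGGCGG on either strand).
Grik4 (chr9:42944322-42944621, minus strand): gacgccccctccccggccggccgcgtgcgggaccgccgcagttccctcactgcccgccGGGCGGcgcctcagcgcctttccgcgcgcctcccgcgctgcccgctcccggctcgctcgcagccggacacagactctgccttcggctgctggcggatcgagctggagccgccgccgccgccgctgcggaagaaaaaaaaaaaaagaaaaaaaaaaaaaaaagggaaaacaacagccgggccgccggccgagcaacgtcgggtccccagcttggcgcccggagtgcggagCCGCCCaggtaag
Grin2c (chr11:115267194-115267493, minus strand): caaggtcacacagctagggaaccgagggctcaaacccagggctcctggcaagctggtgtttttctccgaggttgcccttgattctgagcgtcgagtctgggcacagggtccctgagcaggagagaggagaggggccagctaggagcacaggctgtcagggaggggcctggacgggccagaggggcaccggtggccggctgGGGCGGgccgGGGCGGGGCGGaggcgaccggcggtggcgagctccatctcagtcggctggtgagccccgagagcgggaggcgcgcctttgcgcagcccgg
The 19 members had 21 promoters between them. A GC box was found in at least 1 promoter of 11 of the 19 members, a count by gene, and in 35.7% of 32851 promoters of the same length, a share by promoter, so the values are not directly comparable. The EBF palindrome (TCCC, any 2 bases, GGGA), found in 0.904% of all promoters, and the T-box letters TCACACCT, found in 1.28%, were in none of the 19 on either strand. In GENCODE M21 on GRCm38, 7 of the members lie on chromosome 7 (Grik5, Grin2d, Cacng3, Cacng7, Cacng8, Shisa7 and Gsg1l), with Cacng7 at chr7:3332955-3368221 and Cacng8 at chr7:3390683-3415648, and 5 lie on chromosome 11 (Gria1, Grin2c, Cacng4, Cacng5 and Shisa6). Of the 31 gene bodies, 15 overlap a gene on the opposite strand, among them Grin1, Grin2c, Shisa6, Neto2 and Cacng4. Whether strand was used in counting is not given in the sources used here.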

How the data were processed

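Nuclei of 3 mice were sequenced with the Chromium Single Cell 3′ v3 kit. The authors deposited filtered UMI counts per gene and barcode, made with Cell Ranger (3.0.2 in the matrix headers) on mm10/GRCm38, and a table of the retained nuclei (at least 1000 genes and under 5% mitochondrial UMIs) with their cluster numbers. Whether introns were counted is not given in the sources used here. The deposited counts were summed per mouse and class with at least 10 nuclei in every mouse, filtered with filterByExpr, scaled by TMM and tested with edgeR 4.0.16 (glmQLFit and glmQLFTest, R 4.3.3), and p-values were adjusted by the Benjamini-Hochberg method over every gene in the fit. The standard error is the absolute log2 fold change divided by the square root of F. Depth was 58526996 to 213891496 UMIs per mouse, and doublets were not called. The 33 partner genes were used from a list of 34, since the symbol of 1 stood on 2 rows. The members and all lists were chosen with earlier results of these data known.

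Full statistics were limited to at most 3 higher and 3 lower called members per comparison, and 2 and 2 partners, by absolute log2 fold change; some of the other calls lost under an alternative, mainly of members in the projection neuron types, and Cacng8 and Grin3b are given beyond that rule. Alternatives were library totals or RLE in place of TMM, DESeq2 1.42.0, no filter on low counts, the mouse as a block, each mouse left out, nuclei with at least 1500 genes, and removal of nuclei with at least 2 UMIs of markers of both transmitter classes. The classes of 1 mouse are paired, since they come from the same animal. The mean correlation of deviations from the class means was 0.275 between projection and inhibitory neurons of the same mouse (above 0.1 in 3 of 3 pairs) and -0.138 across mice. It was 0.108 and -0.0535 for the projection neuron types, 0.121 and -0.0590 for the inhibitory clusters, and 0.0948 and -0.0466 for the glial comparison. Deviations from a class mean cancel out over the mice, so the values across mice largely follow from those within mice and are no separate result. Subclusters 2, 8 and 9 and clusters 18 and 21 entered no comparison.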

Additional observations from a re-analysis of the deposited data

Results flagged for a closer look

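Another 5 groups of nuclei entered no comparison because they carried too few markers of a class, mixed markers or the markers of another class, and members were nevertheless read in them with more UMIs than the 3 that a count of 0 allows. Subcluster 2 of the excitatory nuclei, in which 79.4% of nuclei held markers of both transmitter classes, had 31 of 31 members above that floor. Its levels lay between those of the projection and inhibitory neurons for Grik1, at 749.6 ± 59.1 CPM (SD, n = 3 mice), and for Grik2, at 431 ± 34.1 CPM. Subcluster 8 had 30 members above the floor, with Shisa6 at 559 ± 107 CPM and Grik4 at 62.8 ± 12.9 CPM. Subcluster 9, which carried periglomerular markers, had 31 members above it, with Gria4 at 2808 ± 332 CPM and Shisa9 at 946 ± 122 CPM. Cluster 18, whose leading genes include Dcn and Mgp, had 28 members above the floor, with Grik4 at 1.84 ± 3.19 CPM. Cluster 21, of low depth, also had 28, with Grin2b at 1420.5 ± 679 CPM.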

How the results depend on the processing

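Of 216 calls selected by the naming rule, not all of which are printed, each refitted under 10 alternatives, 179 kept their direction and threshold throughout, none reversed, and 72 of 2160 refits lost the call. The number of calls of members in glial classes was 84 and ranged from 54 to 80 when 1 mouse was left out, with the lowest count without mouse 1; the cause was not tested. With the mouse as a block (paired by animal), member calls were 88 in place of 83 over the projection neuron types, 119 in place of 118 over the inhibitory clusters and 97 in place of 84 over the glia, and stayed at 20 between projection and inhibitory neurons and at 10 between mitral and tufted types; partner calls were 195 in place of 190. Scaling by library totals moved the median log2 fold change of all genes by over 0.1 in M2, M3, T1, ET4, inhibitory clusters 3 and 7 and all 5 glial classes. The median became -0.12 in M2, 0.16 in M3, -0.12 in T1 and 0.13 in ET4. Such a scaling moves all genes of a comparison alike, so the unchanged directions of called members under it were no test. Depth limited M1 (14 nuclei in mouse 1) and the microglia (64 AMPA receptor UMIs in the smallest library).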

Other observations

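Over the 22 clusters of all nuclei, single members differed in how far the highest cluster stood above the median cluster. Grin3a reached 72.3 times the median, in ensheathing glia, Shisa6 54.1 times, in the projection neuron cluster 14, and Grik4 39.3 times, in the same cluster 14. Grik5 and Cacng8 were the most even, with 1.51 and 1.47 times. These ratios describe the mean of 3 mice and carry no test.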
